A study of Mus musculus with 6 samples.

Results

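The genes of glutathione, thioredoxin and peroxide defence were followed in isolated mouse pancreatic islets. They were chosen by name: the glutathione transferase, peroxiredoxin, glutathione peroxidase, thioredoxin, thioredoxin reductase and superoxide dismutase families, with 13 further genes of the same chemistry and its control. This gave 56 of the 48321 gene names in the deposited table. One set of islets came from C57BL6 mice put on a high-fat diet at 3 months of age, with 60% of the energy as fat, and kept on it for 4 months. The other came from C57BL6 mice on normal chow, whose age, like the sex of all the animals and the substrain, is not given in the labels. Each diet had 3 samples, labelled wild type (WT) in their titles.

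Superoxide dismutases turn superoxide into hydrogen peroxide. Catalase, glutathione peroxidases and peroxiredoxins then remove the peroxide. Glutathione peroxidases draw their electrons from glutathione and most peroxiredoxins from thioredoxin, and both carriers are recharged with NADPH by a reductase. The transcription factor NFE2L2, held in check by the adaptor KEAP1, switches on many of these genes when electrophiles or oxidants build up. Rodent beta cells, the insulin cells of the islet, are known for low catalase and low glutathione peroxidase.

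Expression is given as CPM (read counts scaled to a common library size), from 18.8 to 35.1 M reads a library. That depth is an estimate from the lowest of the most frequent small values. Smaller values also occur. The column of chow replicate 2 was the mean of replicates 1 and 3 in all 48321 gene names, so it is no library of its own, and high-fat diet had n = 3 and chow n = 2. Nothing in the labels says that samples were separate animals, so each p-value reflects only how far these samples spread, and that spread may be technical. The summed CPM of 10 beta cell markers was 87653 to 95727 in high-fat libraries and 57623 to 80115 in chow libraries, with none of the markers at 0. Markers of acinar cells, which make digestive enzymes around the islets, took 11.6%, 1.57% and 4.65% of the summed CPM in high-fat replicates 1, 2 and 3, against 27% and 10.4% in chow replicates 1 and 3. The summed CPM of 8 fibroblast and stellate cell markers was 150.2 to 187 in high-fat libraries and 264 to 347 in chow libraries. For 4 alpha cell markers it was 10567 to 12051 in high-fat libraries, against 10149 and 2352 in chow replicates 1 and 3. For 2 PP cell markers it was 1635 to 1802 in high-fat libraries, against 1508 and 4260 in those chow replicates. Red blood cell markers summed to 44.9 to 85 CPM in high-fat libraries and 29.4 to 32 CPM in chow libraries. The summed CPM of 8 RNAs that carry no poly(A) tail or are poor in it was 20792 to 31338 in high-fat libraries against 9.23 to 16.2 in chow libraries, so diet and the type of library cannot be told apart for any gene described here.

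Of the 56 genes, 47 reached a mean of 0.5 CPM over the 5 libraries and were tested. High-fat islets had 5 of them higher (Srxn1, Gpx4, Txnip, Gsr and Gsto2) and 6 lower (Gstm1, Gstt1, Gstt2, Gclm, Cat and Nqo1), by limma at a Benjamini-Hochberg adjusted p below 0.05 over all 16939 genes tested. That is 23.4% of the tested members, against 23.7% of all genes tested, of which 14.9% were higher and 8.78% lower. The share of the defence genes called was thus at the background of these libraries, so the count itself is no result about them. The median log2 fold change was -0.13 over the 47 genes and 0.05 over all 16939. Among the 47, 26 had all high-fat libraries on one side of both chow libraries, or 55.3%, against 55.4% of all genes tested. In bulk islets, fewer cells of a type and less RNA per cell cannot be told apart. Leaving out a library changed the counts of members and of all genes, of which 2524 were higher and 1487 lower with the 5 libraries. Dropping high-fat replicate 1 gave 2 members higher and 5 lower (1441 and 790 of all genes). Dropping high-fat replicate 2 gave 2 and 3 members (1167 and 682 of all genes), and dropping high-fat replicate 3 gave 3 and 2 (1222 and 745). Dropping a chow replicate leaves 1 chow library, so only medians are given here. Without chow replicate 1 the median log2 fold change was -0.10 over members and 0.03 over all genes. Without chow replicate 3 it was -0.14 over members and 0.08 over all genes. The balance of directions moved with the scaling. Median-ratio scaling gave 3 higher and 9 lower (1990 and 1946 of all genes), and the trimmed mean of M values (TMM) gave 3 and 7 (1984 and 1898). Library sizes that left out acinar and insulin genes gave 0 and 27 (789 and 6755), and shifted the median of all genes by -0.39 on the log2 scale. These sizes are sums over the deposited rows. The summed CPM of all rows was 832416 to 963615 in high-fat libraries and 674482 to 841705 in chow libraries, so the setting changes more than the share of those genes. List counts given below under it stand beside the same shift.

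**Figure D1:**
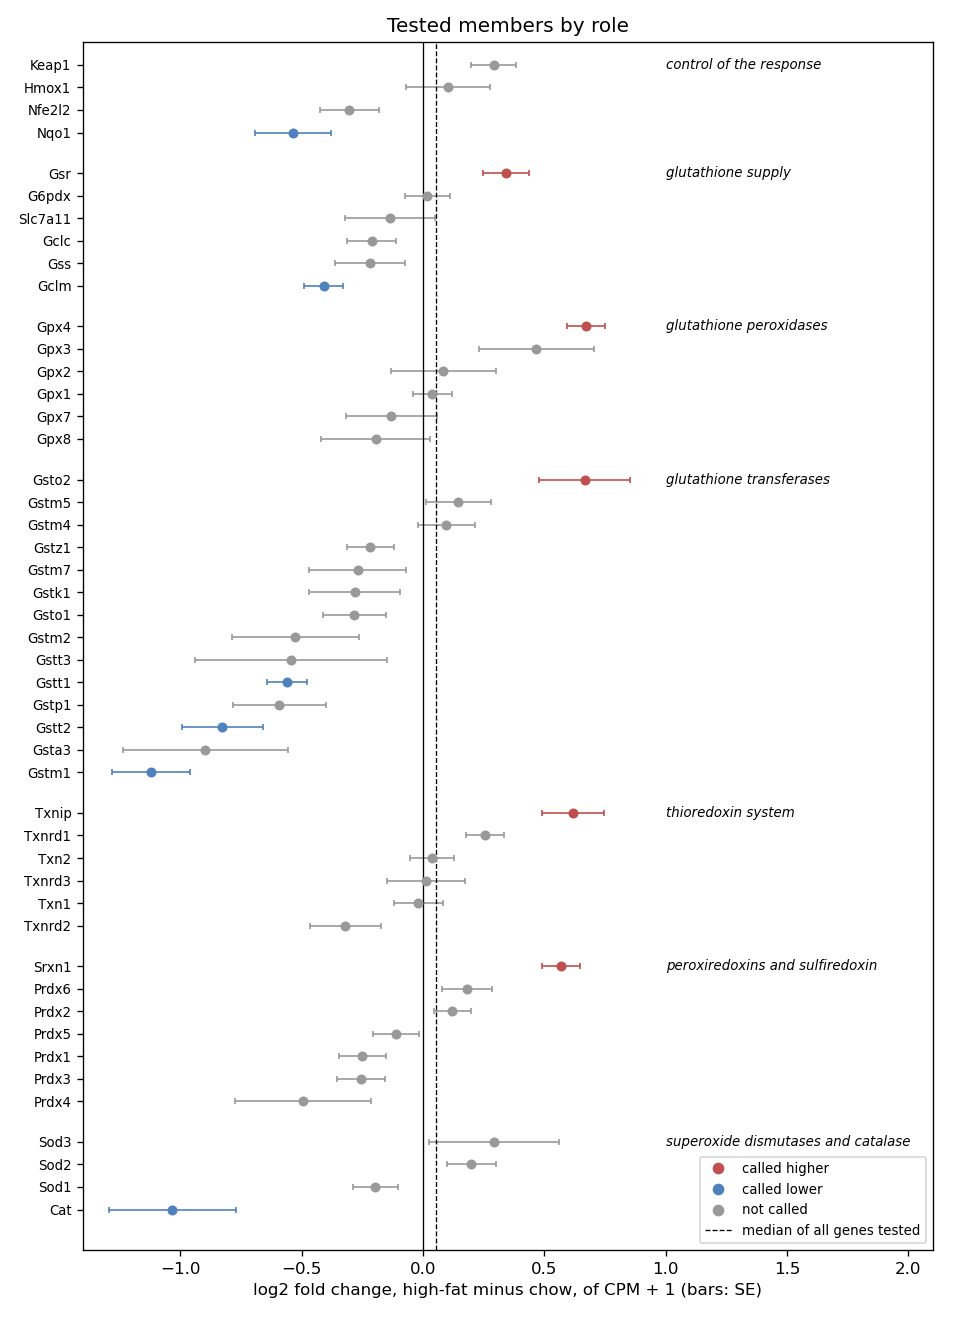
Log2 fold change of CPM + 1, high-fat minus chow, with its SE for the 47 tested genes, one row a gene, grouped by role. The 5 genes called higher lie between 0.34 and 0.67, the 6 called lower between -1.12 and -0.41, and the dashed line marks the median of all genes tested (0.05).

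At the head of the response, neither the repressor nor the activator passed the test. Keap1 was at 50.1, 52.6 and 54.4 CPM in high-fat replicates 1, 2 and 3, against 39.4 and 46 CPM in chow replicates 1 and 3 (log2 0.29 ± 0.09, SE, limma adjusted p = 0.0637). Nfe2l2 was at 31, 25.7 and 32.6 CPM in the high-fat libraries, against 34.6 and 39 CPM in the chow libraries (log2 -0.30 ± 0.12, adjusted p = 0.11). The diets did not overlap for either gene. Without chow replicate 3 the log2 fold change of Keap1 was 0.40, which rests on chow replicate 1 alone. With library sizes that left out acinar and insulin genes Keap1 turned to -0.16 (adjusted p = 0.292) and Nfe2l2 was called lower (-0.75, adjusted p = 0.00312). Within a library, the ratio of Nfe2l2 CPM to Keap1 CPM, which no scaling can change, was 0.618, 0.488 and 0.599 in the high-fat libraries and 0.879 and 0.847 in the chow libraries. This ratio and those below were chosen after the values were seen and carry no test. An antisense transcript, Gm16754, overlaps Keap1 exons on the opposite strand and stood at 2.01 to 3.06 CPM in high-fat libraries and 1.03 to 1.06 CPM in chow libraries. Strand use in counting is not given in the sources.

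The classic target Nqo1, a quinone reductase, fell to 2.11, 2.82 and 2.34 CPM in the high-fat libraries, against 3.77 and 4.13 CPM in the chow libraries (log2 -0.54 ± 0.16, adjusted p = 0.0478). It was not called with log2(CPM + 0.25) (adjusted p = 0.0519), without the filter on mean CPM (0.12) or with the acinar score as a covariate (0.0566). Nqo1 lay just inside the threshold and lost its call when any 1 of the 5 libraries was left out (adjusted p 0.0704 to 0.139). Hmox1, the heme oxygenase that stress induces, was at 3.38, 2.8 and 4.13 CPM in the high-fat libraries, against 3.15 and 3.04 CPM in the chow libraries. Its chow values lay inside the high-fat range (log2 0.10 ± 0.17, adjusted p = 0.69).

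A fixed list of NFE2L2 targets, which also holds Gpx2 of the 56 genes (not called), moved both ways. Of 26 tested, 3 were higher and 4 lower, which is 26.9%, near the 23.7% of all genes, and their median log2 fold change was -0.05. The ferritin chains Fth1 and Ftl1, which store iron, fell. Fth1 was at 179 ± 9.39 CPM in high-fat islets and 275 ± 10.8 CPM in chow islets (SD, n = 3 and 2, log2 -0.61 ± 0.10, adjusted p = 0.00645). Ftl1, named after its values were seen, was at 266 ± 7.98 CPM in high-fat islets and 349 ± 29.4 CPM in chow islets. Pgd, a pentose phosphate enzyme that makes NADPH, rose to 23 ± 0.18 CPM in high-fat islets, against 17.1 ± 1.41 CPM in chow islets (adjusted p = 0.0207). Osgin1, an oxidative stress-induced growth inhibitor, also rose (10.3 ± 0.247 CPM in high-fat islets and 7.1 ± 1.1 CPM in chow islets). The higher calls became 0 with the acinar score as a covariate, where 1 gene was lower, and 0 with the library sizes that left out acinar and insulin genes, where 17 were lower.

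In the list of the KEAP1 ubiquitin ligase and of NFE2L2 partners, 4 of 16 tested genes were higher and 0 lower. That is 25% called, near the 23.7% of all genes, so the count is no result about the list. Nfe2l3, a relative of NFE2L2, was at 19.3, 26.3 and 24 CPM in the high-fat libraries, against 1.08 and 0.529 CPM in the chow libraries (log2 3.75 ± 0.19, adjusted p = 3.7e-05). Every high-fat library was far above both chow libraries. Dpp3, a peptidase that binds KEAP1, was read from the row named by its synonym 4930533O14Rik. It was at 36.4 ± 1.81 CPM in high-fat islets and 22 ± 0.501 CPM in chow islets (adjusted p = 0.00239). The kinase Gsk3b (121 ± 10.2 CPM in high-fat islets, 90.2 ± 9.96 CPM in chow islets) and Rbx1, the RING subunit of the ligase (33.6 ± 0.727 CPM in high-fat islets, 26.6 ± 2.33 CPM in chow islets), were the other genes called. With library sizes that left out acinar and insulin genes, 1 gene of this list was higher and 6 were lower.

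Peroxiredoxins reduce peroxides with a reactive cysteine, and sulfiredoxin, encoded by Srxn1, repairs that cysteine when it is over-oxidized. Srxn1 rose, and no peroxiredoxin passed the test. It was at 34.8, 35.8 and 34.6 CPM in the high-fat libraries, against 22.8 and 23.8 CPM in the chow libraries (log2 0.57 ± 0.08, adjusted p = 0.00393). The diets stood far apart beside the spread within each. With library sizes that left out acinar and insulin genes the Srxn1 call was lost (log2 0.12, adjusted p = 0.355, which is 0.46 above that of the median gene). Of the 6 peroxiredoxins, 0 were called by limma. Prdx1, a cytosolic enzyme, was at 54.1, 62.7 and 54 CPM in the high-fat libraries, against 65.1 and 70.5 CPM in the chow libraries (log2 -0.25 ± 0.10, adjusted p = 0.105). It was called lower under the median-ratio, TMM and acinar- and insulin-free scalings. Of the words of 31 bases in Prdx1 transcripts, 15.2% also occur in other transcripts, so part of its reads may be uncertain. The cytosolic Prdx2 was at 59, 58.1 and 55.9 CPM in the high-fat libraries, against 51.6 and 54.3 CPM in the chow libraries (log2 0.12 ± 0.08, adjusted p = 0.285). Prdx6, which uses glutathione in place of thioredoxin, was at 99.6, 106 and 94.1 CPM in the high-fat libraries, against 81.1 and 95.4 CPM in the chow libraries (log2 0.18 ± 0.10, adjusted p = 0.236). Both had higher means in high-fat islets, and with library sizes that left out acinar and insulin genes their fold changes turned to -0.33 and -0.28. Mitochondrial Prdx3 (18.1 ± 1.45 CPM in high-fat islets, 21.7 ± 0.53 CPM in chow islets) and Prdx5, found in several compartments (26 ± 1.15 CPM in high-fat islets, 28.2 ± 2.69 CPM in chow islets), had lower means with adjusted p of 0.106 and 0.421. The ratio of Srxn1 CPM to Prdx1 CPM was 0.643, 0.571 and 0.64 in the high-fat libraries and 0.35 and 0.337 in the chow libraries. Per kilobase of annotated exon, Prdx6 was the most abundant of these genes in both diets (40 CPM per kilobase in high-fat islets, 35.3 in chow islets) and Srxn1 rose to 12.5 CPM per kilobase in high-fat islets, against 8.28 in chow islets.

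The promoters are shown because genes that NFE2L2 is known to drive moved apart here. RefSeq promoters (GRCm38.p6, 250 bases before to 50 after the transcript start) were matched for 49 of the 56 genes. The core TGACNNNGC of the antioxidant response element, searched on both strands, was found for 10 of the 49 genes, or 20.4%, against 14% of all 27025 genes with a promoter. The stricter element TGANTCAGC, which NFE2L2 binds with a small MAF protein, was added after the first search. It overlaps the core where its N is C. It was found for 4 of the 49, or 8.16%, against 1.37% of all genes: Srxn1, Prdx1, Gstp1 and Gstp2. Of these, Srxn1 rose, Prdx1 and Gstp1 had lower means without a call, and Gstp2 was too low to test. Srxn1 holds the core as well, after its start. Gclm, which fell, holds the core and not the stricter element. The window of Srxn1 is chr2:152105274-152105573 (plus strand), that of Prdx1 chr4:116685349-116685648 (plus), that of Gstp1 chr19:4037863-4038162 (minus) and that of Gclm chr3:122245307-122245606 (plus). Capitals mark TGANTCAGC in the first 3 and TGACNNNGC in Gclm, read on either strand. The matches begin at -45, -133, -74 and -134 from the transcript start.
Srxn1: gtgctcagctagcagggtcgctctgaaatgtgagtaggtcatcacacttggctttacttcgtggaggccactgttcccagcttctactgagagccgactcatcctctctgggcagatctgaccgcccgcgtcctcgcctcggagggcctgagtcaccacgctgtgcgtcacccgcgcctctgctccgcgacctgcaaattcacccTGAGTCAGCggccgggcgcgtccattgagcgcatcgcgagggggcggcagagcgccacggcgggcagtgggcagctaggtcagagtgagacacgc
Prdx1: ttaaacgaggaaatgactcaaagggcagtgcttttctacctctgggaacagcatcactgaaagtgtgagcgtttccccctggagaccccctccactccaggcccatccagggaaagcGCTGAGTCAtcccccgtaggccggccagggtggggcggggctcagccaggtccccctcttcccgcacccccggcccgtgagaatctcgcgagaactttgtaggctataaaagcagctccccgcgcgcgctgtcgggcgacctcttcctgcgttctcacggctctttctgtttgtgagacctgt
Gstp1: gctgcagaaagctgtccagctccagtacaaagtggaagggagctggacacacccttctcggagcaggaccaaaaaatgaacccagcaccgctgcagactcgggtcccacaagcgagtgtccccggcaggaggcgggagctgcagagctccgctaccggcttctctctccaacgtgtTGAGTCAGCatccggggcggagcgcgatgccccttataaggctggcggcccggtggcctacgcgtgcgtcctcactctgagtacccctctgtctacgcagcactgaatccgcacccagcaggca
Gclm: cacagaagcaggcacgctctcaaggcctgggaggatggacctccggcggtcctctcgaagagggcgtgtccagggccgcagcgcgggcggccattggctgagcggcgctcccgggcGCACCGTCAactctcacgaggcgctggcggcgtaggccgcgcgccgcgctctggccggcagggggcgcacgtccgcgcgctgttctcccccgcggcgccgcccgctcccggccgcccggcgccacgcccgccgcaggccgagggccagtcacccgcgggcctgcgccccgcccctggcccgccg

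In the thioredoxin system the inhibitor moved and the thioredoxins did not pass the test. Txnip, which binds thioredoxin and is induced by glucose in beta cells, rose to 467, 438 and 397 CPM in the high-fat libraries, against 301 and 263 CPM in the chow libraries (log2 0.62 ± 0.13, adjusted p = 0.0163). The lowest high-fat library stood well above the higher chow library. Without the filter on mean CPM the Txnip call was lost (adjusted p = 0.0612). The call was also lost without high-fat replicate 1 (adjusted p = 0.062) or 2 (0.064), and with library sizes that left out acinar and insulin genes (log2 0.16, adjusted p = 0.389). Set against the median gene, its log2 fold change there was 0.50. An antisense transcript, Gm15441, overlaps 606 exon bases of Txnip and stood at 1.05 to 3.16 CPM in high-fat libraries and 2.83 to 6.12 CPM in chow libraries.

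Txn1, the cytosolic thioredoxin, was at 12.8, 12.3 and 13.6 CPM in the high-fat libraries, against 13.4 and 12.8 CPM in the chow libraries (log2 -0.02 ± 0.10, adjusted p = 0.904). Txn2, its mitochondrial counterpart, was at 25, 22 and 23.5 CPM in the high-fat libraries, against 22.9 and 22.8 CPM in the chow libraries (log2 0.04 ± 0.09, adjusted p = 0.795). The diets overlapped for both. Of the words of 31 bases in Txn1 transcripts, 6.95% also occur in the pseudogene Txn-ps1. That row was at 1.9, 1.86 and 2.27 CPM in the high-fat libraries, against 4.55 and 3.49 CPM in the chow libraries, so reads of the pair may be uncertain. The ratio of Txnip CPM to Txn1 CPM was 36.5, 35.7 and 29.2 in the high-fat libraries and 22.6 and 20.6 in the chow libraries. Txnrd1, the cytosolic selenoprotein that recharges thioredoxin, was at 94.2, 95.1 and 91.3 CPM in the high-fat libraries, against 75 and 81.5 CPM in the chow libraries (log2 0.26 ± 0.08, adjusted p = 0.0583). Its groups did not overlap. Without chow replicate 3 its log2 fold change was 0.31, which rests on chow replicate 1 alone. Its fold change turned to -0.20 with library sizes that left out acinar and insulin genes (adjusted p = 0.157). The mitochondrial reductase Txnrd2 had a lower mean, at 3.86, 4.93 and 4.38 CPM in the high-fat libraries, against 6 and 5.42 CPM in the chow libraries (log2 -0.32 ± 0.15, adjusted p = 0.156). Txnrd3, a reductase known from testis, was at 3.67, 4.9 and 3.7 CPM in the high-fat libraries, against 3.93 and 4.09 CPM in the chow libraries (adjusted p = 0.96).

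The Txnip promoter (GRCm38.p6, chr3:96557707-96558006, plus strand) is shown because it holds the carbohydrate response element through which glucose acts on this gene. The element was searched on both strands as a pair of E-box-like motifs, a search added after the values were seen, and is in capitals, beginning at -85. No other promoter of the 49 held it, and 0.426% of all genes did.
Txnip: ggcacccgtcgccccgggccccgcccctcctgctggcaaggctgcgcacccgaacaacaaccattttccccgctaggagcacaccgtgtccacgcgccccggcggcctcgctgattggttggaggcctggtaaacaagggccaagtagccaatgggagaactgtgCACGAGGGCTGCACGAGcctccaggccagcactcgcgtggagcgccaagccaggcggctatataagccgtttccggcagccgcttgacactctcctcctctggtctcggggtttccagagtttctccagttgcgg

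**Figure D2:**
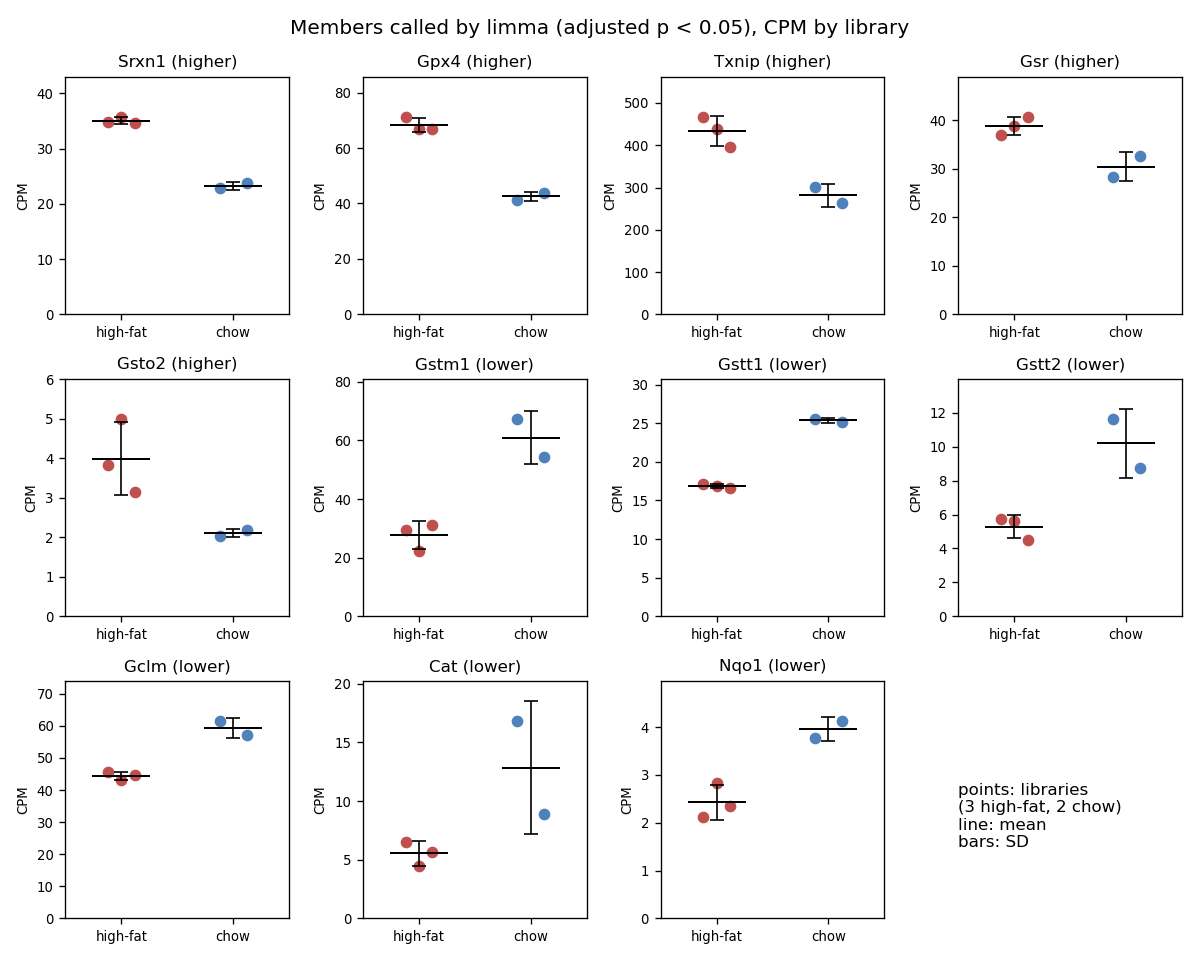
CPM in each library for the 11 genes called by limma, with the mean and SD of each diet (3 high-fat libraries, 2 chow libraries). The 5 genes called higher come first. For Srxn1 the high-fat libraries sit between 34.6 and 35.8 CPM, above both chow libraries (22.8 and 23.8 CPM), and for Cat the chow libraries lie far apart, at 16.9 and 8.86 CPM.

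Glutathione is built by glutamate-cysteine ligase, whose catalytic subunit is Gclc and whose modifier subunit is Gclm, and is finished by Gss. Gclm fell to 45.5, 43.2 and 44.7 CPM in the high-fat libraries, against 61.6 and 57.2 CPM in the chow libraries (log2 -0.41 ± 0.08, adjusted p = 0.0131). Its call was lost with the acinar score as a covariate (log2 -0.36, adjusted p = 0.0645), without high-fat replicate 2 (log2 -0.39, adjusted p = 0.0589) and without high-fat replicate 3 (log2 -0.41, adjusted p = 0.0501). Gclc was at 20.6, 19.4 and 21.6 CPM in the high-fat libraries, against 25.7 and 22.2 CPM in the chow libraries, below both chow libraries but not called (log2 -0.21 ± 0.10, adjusted p = 0.172). The ratio of Gclm CPM to Gclc CPM was 2.22, 2.23 and 2.07 in the high-fat libraries and 2.39 and 2.58 in the chow libraries. A transcribed pseudogene, Gm6061, shares 244 exon bases with Gclm and stood at 4.43 to 10.3 CPM in high-fat libraries and 13.6 to 20.2 CPM in chow libraries. Gsr, the reductase that recycles oxidized glutathione, rose to 37, 38.8 and 40.8 CPM in the high-fat libraries, against 28.3 and 32.6 CPM in the chow libraries (log2 0.34 ± 0.09, adjusted p = 0.0398). The Gsr call was lost under median-ratio and TMM scaling (adjusted p = 0.0623 and 0.0632), and its fold change turned to -0.11 with library sizes that left out acinar and insulin genes. The call was lost as well without the filter on mean CPM (adjusted p = 0.102), with the acinar score as a covariate (0.162) and without the variance trend (0.0795). It was also lost without chow replicate 1 or without any 1 of the high-fat libraries (adjusted p 0.078 to 0.146).

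The other suppliers were not called. Gss was at 7.46 ± 0.867 CPM in high-fat islets and 8.84 ± 1.22 CPM in chow islets. G6pdx, which makes NADPH at the entry of the pentose phosphate pathway, was at 19.6 ± 1.14 CPM in high-fat islets and 19.3 ± 0.719 CPM in chow islets (log2 0.02 ± 0.09, adjusted p = 0.906). Slc7a11, the cystine importer, was low, at 1.16, 1.04 and 1.02 CPM in the high-fat libraries and 1.68 and 0.929 CPM in the chow libraries. In the wider NADPH supply list, 1 of 18 tested genes was higher (Pgd) and 1 lower, malic enzyme Me1 (14.1 ± 0.723 CPM in high-fat islets, 18.1 ± 0.579 CPM in chow islets), which is 11.1% called. Of 24 other glutathione enzymes and exporters tested, 2 were higher and 0 lower, or 8.33% called, against 23.7% of all genes. They were Hagh, a glyoxalase pathway hydrolase (41 ± 1.6 CPM in high-fat islets, 30.5 ± 1.48 CPM in chow islets), and Abcc4, a pump that can export glutathione (35 ± 3.96 CPM in high-fat islets, 25.1 ± 2.47 CPM in chow islets).

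Among the glutathione peroxidases, Gpx4 alone was called. This selenoenzyme reduces lipid hydroperoxides in membranes and holds off ferroptosis. It was at 71.3, 66.9 and 67 CPM in the high-fat libraries, against 41.4 and 43.6 CPM in the chow libraries (log2 0.67 ± 0.08, adjusted p = 0.00212). The gap between the diets was many times the spread within them. Of the words of 31 bases in Gpx4 transcripts, 38.9% also occur in other transcripts, nearly all in a processed pseudogene, so part of its reads may have been split or added by the counting. The call held under 15 of 16 alternatives, and was lost with library sizes that left out acinar and insulin genes (log2 0.22, adjusted p = 0.107, which is 0.56 above that of the median gene). Gpx1, the cytosolic enzyme, was at 32.4, 34.6 and 34 CPM in the high-fat libraries, against 33.5 and 32 CPM in the chow libraries (log2 0.04 ± 0.08, adjusted p = 0.751). The ratio of Gpx4 CPM to Gpx1 CPM was 2.2, 1.93 and 1.97 in the high-fat libraries and 1.23 and 1.36 in the chow libraries.

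Gpx3, a secreted selenoenzyme, was the most abundant peroxidase per kilobase in both diets (126 CPM per kilobase in high-fat islets, 93.9 in chow islets). It was at 172, 203 and 226 CPM in the high-fat libraries, against 191 and 108 CPM in the chow libraries (log2 0.47 ± 0.24, adjusted p = 0.193). Chow replicate 1 lay inside the high-fat range and chow replicate 3 below it. Without chow replicate 1 the log2 fold change of Gpx3 was 0.88, which rests on chow replicate 3 alone. That library also had the lowest sum of alpha cell markers, and the part of cell composition in the result was not tested. Gpx2, known from gut epithelium, was at 7 ± 1.64 CPM in high-fat islets and 6.51 ± 1.51 CPM in chow islets. The endoplasmic reticulum enzymes Gpx7 and Gpx8 averaged 0.628 and 0.693 CPM in high-fat islets and 0.763 and 0.905 CPM in chow islets, and neither was called. Gpx5 did not pass the floor of 3 reads in any library, and Gpx6 passed it in 1, with a highest value of 0.114 CPM.

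**Figure D3:**
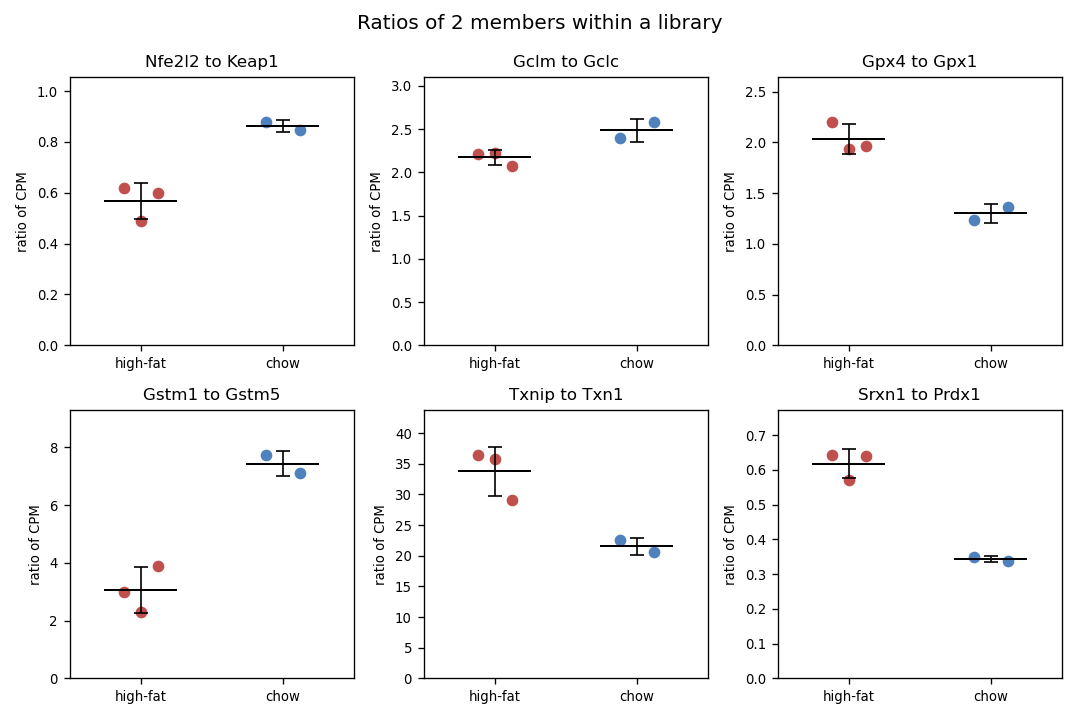
Ratio of the CPM of 2 genes in each library, with the mean and SD of each diet (3 high-fat libraries, 2 chow libraries). The ratios do not depend on library scaling. Srxn1 to Prdx1 was 0.571 to 0.643 in high-fat libraries against 0.337 to 0.35 in chow libraries, and Gstm1 to Gstm5 was 2.3 to 3.89 against 7.12 to 7.74.

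Glutathione transferases join glutathione to electrophiles. Of 21 named in the table, 14 were tested, of which 3 fell, 1 rose and 10 were not called. The share called, 28.6%, was near the 23.7% of all genes. The median log2 fold change of the 14 was -0.40, against 0.05 over all genes. The summed CPM of the family was 186, 172 and 173 in the high-fat libraries, against 271 and 234 in the chow libraries. Gstm1 carried much of this difference. It fell to 29.3, 22.2 and 31.3 CPM in the high-fat libraries, against 67.4 and 54.5 CPM in the chow libraries (log2 -1.12 ± 0.16, adjusted p = 0.00477). Of its words of 31 bases, 28.8% are shared with other transcripts, 22.6% with the pseudogene Gstm2-ps1. That row was at 2.47, 2.15 and 2.35 CPM in the high-fat libraries, against 13.3 and 11.9 CPM in the chow libraries, so reads of the pair may be uncertain, but both rows were lower. Gstm1 kept its call under all 16 alternatives (adjusted p 0.000259 to 0.0363). Other mu class genes had fold changes nearer 0, and the differences from Gstm1 were not tested. Gstm5, with no shared words, was at 9.82, 9.67 and 8.03 CPM in the high-fat libraries, against 8.71 and 7.65 CPM in the chow libraries (log2 0.15 ± 0.13, adjusted p = 0.459), and Gstm4 at 7.29 ± 0.147 CPM in high-fat islets and 6.76 ± 0.418 CPM in chow islets. The ratio of Gstm1 CPM to Gstm5 CPM was 2.99, 2.3 and 3.89 in the high-fat libraries and 7.74 and 7.12 in the chow libraries. Gstm2 (9.97 ± 2.33 CPM in high-fat islets, 15 ± 5.69 CPM in chow islets) and Gstm7 (1.54 ± 0.102 CPM in high-fat islets, 2.11 ± 0.845 CPM in chow islets) overlapped between diets.

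Of the theta class, Gstt1 and Gstt2 fell. Gstt1 was at 17.2, 16.9 and 16.6 CPM in the high-fat libraries, against 25.6 and 25.1 CPM in the chow libraries (log2 -0.56 ± 0.08, adjusted p = 0.00536), with less than 1 CPM between the libraries of a diet. It kept its call under all 16 alternatives (adjusted p 0.000339 to 0.0285). Gstt2 was at 5.74, 5.62 and 4.51 CPM in the high-fat libraries, against 11.6 and 8.75 CPM in the chow libraries (log2 -0.83 ± 0.17, adjusted p = 0.0153). That call was lost with the acinar score as a covariate (log2 -0.74, adjusted p = 0.0602), without chow replicate 1 (log2 -0.64, adjusted p = 0.078) and without high-fat replicate 3 (log2 -0.73, adjusted p = 0.05). Gstt3 was at 2.48, 0.777 and 1.36 CPM in the high-fat libraries and 4.32 and 1.38 CPM in the chow libraries, with overlap. Gstt1 and Gstt2 fell beside the lower fibroblast and stellate cell markers, of which 5 of 8 were lower. The part of these cells in the result was not tested. Nor was that of beta cells, of whose 10 markers 4 were higher, in the genes called higher.

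Gstp1, the pi-class enzyme, was at 25.8, 17.5 and 19.7 CPM in the high-fat libraries, against 37.4 and 26.9 CPM in the chow libraries. It lay below both chow libraries without passing the test (log2 -0.59 ± 0.19, adjusted p = 0.0635), and was called without high-fat replicate 1. Without chow replicate 3 its log2 fold change was -0.82, which rests on chow replicate 1 alone. Gstp1 shares 38.5% of its words with Gstp2, so reads of the pair may be uncertain. The Gstp2 row went the other way, at 0.221, 0.186 and 0.377 CPM in the high-fat libraries, against 0.00768 and 0.00456 CPM in the chow libraries. How shared reads were divided between the rows was not tested. Gstz1, which isomerizes a tyrosine breakdown product, was at 55.3, 62.9 and 55 CPM in the high-fat libraries against 63.5 and 70.9 CPM in the chow libraries (log2 -0.22 ± 0.10, adjusted p = 0.146). Per kilobase, Gstz1 and Gstp1 led in high-fat islets, at 26.8 and 25.6 CPM per kilobase, where Gstm1 stood at 20.2. In chow islets Gstm1 led, at 44.6 CPM per kilobase, with Gstp1 at 39.2 and Gstz1 at 31.3. Gsto2, an omega-class enzyme that reduces dehydroascorbate, was the only family member called higher. It was at 3.82, 5 and 3.16 CPM in the high-fat libraries, against 2.03 and 2.19 CPM in the chow libraries (log2 0.67 ± 0.19, adjusted p = 0.0432). Its call was lost under 11 of 16 alternatives, the leaving out of any 1 library included. Gsto1 was not called, at 9.96 ± 1.08 CPM in high-fat islets and 12.3 ± 1.25 CPM in chow islets (adjusted p = 0.16). Mitochondrial and peroxisomal Gstk1 was at 3.14 ± 0.692 CPM in high-fat islets and 4.01 ± 0.673 CPM in chow islets.

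Of the alpha class, 1 of 4 genes was tested. Gsta1 was listed at 0 in every library, but 92.9% of its words of 31 bases, and 60.7% of those of Gsta2, occur in other transcripts, so counting may have lost their reads. Gsta2 and the theta gene Gstt4 did not pass the floor of 3 reads (0.0856 to 0.16 CPM, counting error only) in any library. Gsta3 was at 0.802, 0.462 and 0.723 CPM in the high-fat libraries, against 3.72 and 1.01 CPM in the chow libraries, and was not called (log2 -0.90 ± 0.34, adjusted p = 0.0993). Gsta4 and Gstm6 passed the floor in all 5 libraries but stayed under 0.5 CPM on average, with highest values of 0.567 and 0.494 CPM. Gstm3 passed it in 1 library (0.204 CPM) and Gstp2 in the 3 high-fat libraries (up to 0.377 CPM).

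Catalase breaks down hydrogen peroxide without any cofactor that must be recharged. Cat fell to 6.54, 4.46 and 5.63 CPM in the high-fat libraries, against 16.9 and 8.86 CPM in the chow libraries (log2 -1.03 ± 0.26, adjusted p = 0.0318). Its call was lost without the filter on mean CPM (adjusted p = 0.118). The groups did not overlap, but the chow libraries lay farther from each other than the lower one lay from the high-fat libraries. Chow replicate 1, with the higher value, also held the largest acinar share (27%). Without it the log2 fold change was -0.60 and the call was lost (adjusted p = 0.125), as it was with the acinar score as a covariate (log2 -0.69, adjusted p = 0.085) and without any 1 of the high-fat libraries (0.0549 to 0.0944). That covariate lowered the calls over all genes as well, to 1199 higher and 781 lower, against 2524 and 1487. The part of acinar cells in the result was not tested.

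Of the 47 tested members, 3 (Prdx4, Gstm2 and Gstt3) had the 5 libraries in the order of the acinar share, as did 222 of all 16939 genes, or 1.31%. For Gstm2 and Gstt3 that order is not resolved, since chow replicate 3 and high-fat replicate 3 differed by less than 1 read is worth. Prdx4, a peroxiredoxin of the endoplasmic reticulum, was at 23.7, 13 and 16.9 CPM in the high-fat libraries, against 32.1 and 19.2 CPM in the chow libraries. Its lowest and highest values went with acinar shares of 1.57% and 27%, and it was not called (log2 -0.49 ± 0.28, adjusted p = 0.236).

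**Figure D4:**
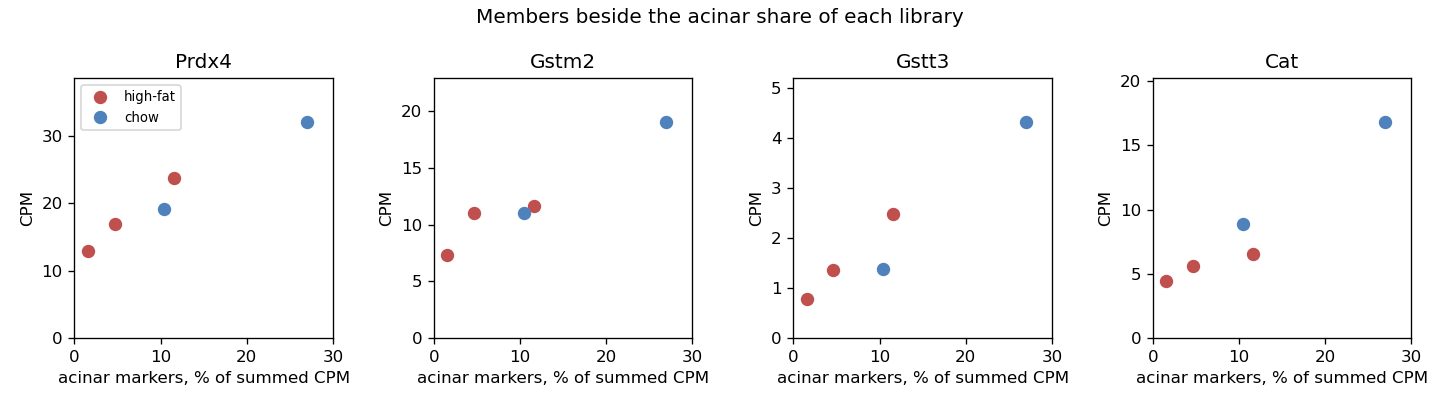
CPM of 4 genes in each of the 5 libraries against the share of acinar markers in the summed CPM (percent). Prdx4 ranks the libraries as the acinar share does, Gstm2 and Gstt3 do so but for a pair of libraries too close to order, and Cat is highest in the chow library with the largest share (27%) but ranks both chow libraries above all high-fat libraries.

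The superoxide dismutases were not called. Sod1, the cytosolic copper-zinc enzyme, was at 58.5, 54.9 and 62.6 CPM in the high-fat libraries, against 70.9 and 63.9 CPM in the chow libraries (log2 -0.20 ± 0.09, adjusted p = 0.164). Sod2, the mitochondrial manganese enzyme, was at 54.1, 55 and 59.2 CPM in the high-fat libraries, against 44.4 and 53.3 CPM in the chow libraries (log2 0.20 ± 0.10, adjusted p = 0.192). Neither pair of groups overlapped, and their fold changes had opposite signs with the deposited CPM. Without chow replicate 3 the log2 fold change of Sod2 was 0.33, which rests on chow replicate 1 alone. With library sizes that left out acinar and insulin genes Sod2 turned to -0.25. Of the words of 31 bases, 26.6% of those of Sod2 and 5.41% of those of Sod1 occur in other transcripts, so part of their reads may be uncertain. Sod3, the extracellular enzyme, was at 2.24, 3.07 and 2.82 CPM in the high-fat libraries, against 3.09 and 1.22 CPM in the chow libraries. Its chow libraries lay on both sides (adjusted p = 0.459), and its fold change of 0.29 turned to -0.15 without chow replicate 3.

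The neighbouring pathways were read from fixed lists. Of 26 thioredoxin-like and oxidative folding genes tested, 8 were higher and 3 lower, or 42.3% against the background of 23.7%, with a median log2 fold change of 0.18. Pdia4 and Pdia5, protein disulfide isomerases of the endoplasmic reticulum, rose. Pdia4 was at 149 ± 7.67 CPM in high-fat islets and 90.2 ± 0.218 CPM in chow islets (adjusted p = 0.00229), and Pdia5 at 26.4 ± 3.05 CPM in high-fat islets and 15.5 ± 0.196 CPM in chow islets (adjusted p = 0.0067). Txndc17, a small cytosolic thioredoxin-like protein, fell to 13.2 ± 1.67 CPM in high-fat islets, against 24.3 ± 0.903 CPM in chow islets (adjusted p = 0.00498). Tmx3, a membrane-bound relative, fell to 32.1 ± 1.53 CPM in high-fat islets, against 46.5 ± 3.85 CPM in chow islets (adjusted p = 0.00913). The list had 0 higher and 12 lower with library sizes that left out acinar and insulin genes, and 4 higher and 2 lower with the acinar score as a covariate.

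Several of the defence enzymes carry selenocysteine, and 22 genes of selenoprotein synthesis, other selenoproteins and methionine sulfoxide reductases were tested. High-fat islets had 4 of them higher and 0 lower, or 18.2% called, against 23.7% of all genes. They were Selenos, which helps to clear misfolded proteins from the endoplasmic reticulum (58.6 ± 2.55 CPM in high-fat islets, 40 ± 0.642 CPM in chow islets), Selenoi (41 ± 1.4 CPM in high-fat islets, 29.6 ± 1.21 CPM in chow islets), the selenocysteine lyase Scly (72.1 ± 4.01 CPM in high-fat islets, 56.4 ± 4.49 CPM in chow islets) and the elongation factor Eefsec (9.39 ± 0.703 CPM in high-fat islets, 6.42 ± 1.19 CPM in chow islets). Dropping acinar and insulin genes from the library size made this 0 higher and 12 lower. Of 14 superoxide- and peroxide-producing enzymes tested, 1 was higher, the peroxisomal oxidase Acox3 (20 ± 1.87 CPM in high-fat islets, 15.2 ± 0.649 CPM in chow islets), and 0 were lower, or 7.14% called. Of 4 tested alpha-arrestins, the family of Txnip, 0 passed the limma threshold. Arrdc4, named after its values were seen, was at 21.4, 23.3 and 14.3 CPM in the high-fat libraries, against 12.1 and 12.9 CPM in the chow libraries (log2 0.59 ± 0.20, adjusted p = 0.0707).

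**Figure D5:**
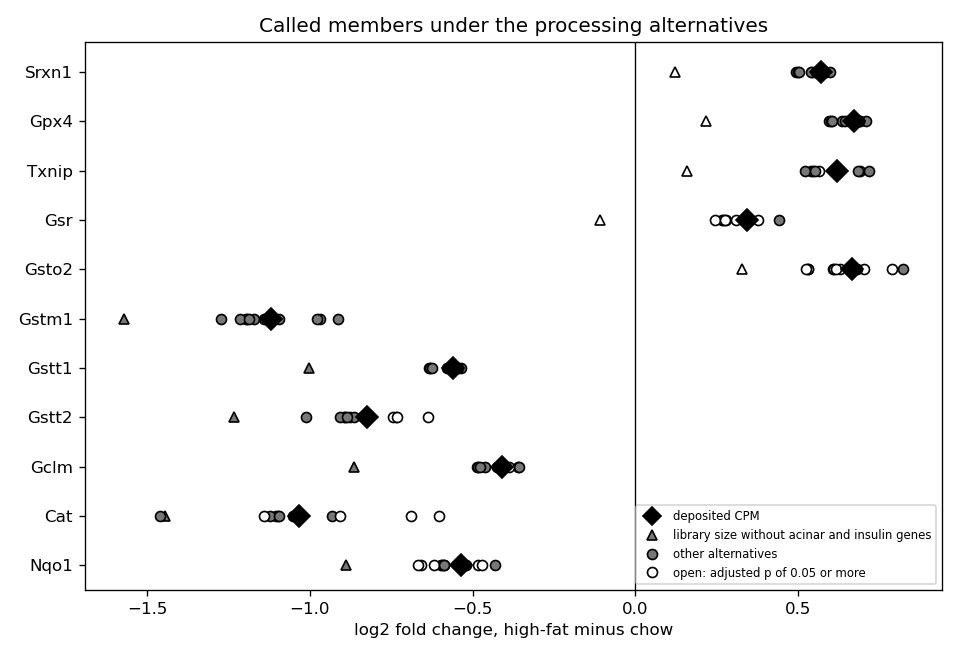
Log2 fold change, high-fat minus chow, of the 11 called genes under the deposited CPM (diamonds), with library sizes that leave out acinar and insulin genes (triangles) and under the other 15 alternatives (circles). Open symbols have an adjusted p of 0.05 or more. Gstm1 and Gstt1 have no open symbol, Gpx4 and Srxn1 have 1 each, and Gsr alone crosses 0 (-0.11).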

How the data were processed

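RNA from mouse islets was sequenced in 6 samples. The deposited values are CPM to which the authors' table adds 1 (found from the values), and the submitters' processing notes name Partek. The aligner, build, counting method and library kit are not given in the sources. The 1 was subtracted. Chow replicate 2, an exact average of the other chow columns (tolerance 0.001), was left out, so 5 libraries were compared. Genes averaging 0.5 CPM or more were tested on log2(CPM + 1) with limma 3.58.1 (R 4.3.3; variance trend, Benjamini-Hochberg over 16939 genes, threshold 0.05); fold changes are on that scale and understate the change of low genes. TMM factors were computed from the published formula. Low values were whole multiples of 1 step in only 64.5% to 69.9% of cases (tolerance 0.1 reads), so no count test was run. Exon lengths and shared words are from GENCODE, promoters from RefSeq. Of the names, 46369 matched a mouse symbol, and 11 list genes were matched by a RefSeq synonym (Vimp for Selenos, for example). Members and lists were chosen with earlier results of these data known. Every called member was named, every member of the control, thioredoxin, and dismutase and catalase roles, the 3 most abundant of each other role, and up to 4 called genes with the smallest p of each list. Alternatives covered scaling, pseudocount, filter, the averaged column, an acinar covariate, the variance trend and each library left out; the testing script was tested on simulated data.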

Additional observations from a re-analysis of the deposited data

How the results depend on the processing

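Of 480 values for 30 named genes under 16 alternatives, 378 kept direction and side of the threshold, 48 lost a call, 25 gained one and 29 changed sign; the causes were not tested. Gstm1 and Gstt1 kept their calls in all 16. Counts below are higher then lower.

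Median-ratio scaling gave 3 members higher and a member median of -0.19, TMM 3 and -0.18, and a median ratio over protein-coding genes other than acinar markers, chosen after seeing the data, 3 and -0.18. All 3 gave 1 lower among glutathione enzymes, 2 lower among KEAP1 partners and 0 higher among peroxide producers, and the first 2 gave 2 higher among KEAP1 partners. In the order given, Gpx1 turned to -0.038, -0.034 and -0.028, Txn2 to -0.039, -0.035 and -0.029 and Txnrd3 to -0.050, -0.046 and -0.041. Library sizes without acinar and insulin genes gave 0 and 27 members (median -0.45), 0 and 13 glutathione enzymes, 0 and 17 NFE2L2 targets, 1 and 6 KEAP1 partners, 0 and 10 NADPH suppliers, 0 and 12 folding genes, 0 and 12 selenoprotein genes, 0 and 9 peroxide producers and 2 alpha-arrestins lower. That setting turned Gpx1 to -0.41, Gsr to -0.11, Hmox1 to -0.25, Keap1 to -0.16, Prdx2 to -0.33, Prdx6 to -0.28, Sod2 to -0.25, Sod3 to -0.023, Txn2 to -0.41, Txnrd1 to -0.20 and Txnrd3 to -0.36.

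The acinar covariate gave 3 and 2 members (median -0.078), 1 glutathione enzyme higher, 0 and 1 NFE2L2 targets, 2 KEAP1 partners higher, 0 NADPH suppliers lower, 4 folding and 2 selenoprotein genes higher and 0 peroxide producers higher, and turned Txn1 to 0.015 and Txnrd3 to -0.12. All 6 columns, which count the average as a library, gave 13 members lower, 3 glutathione enzymes lower, 7 and 2 KEAP1 partners, 3 NADPH suppliers higher, 2 and 4 peroxide producers and 1 alpha-arrestin higher. No filter gave 2 and 3 members, 1 glutathione enzyme higher, 0 and 1 NFE2L2 targets, 2 KEAP1 partners higher, 0 and 0 NADPH suppliers, 4 folding and 2 selenoprotein genes higher and 0 peroxide producers higher. No variance trend gave 1 glutathione enzyme higher, 1 NFE2L2 target lower, 2 KEAP1 partners higher, 0 NADPH suppliers lower, 5 folding and 2 selenoprotein genes higher and 0 peroxide producers higher. With log2(CPM + 0.25) the member median was -0.20. Both log2(CPM + 2) and a mean of at least 1 CPM gave 1 glutathione enzyme lower. The counts over all genes moved too, from 2524 and 1487. They were 1199 and 781 with the acinar covariate and 4224 and 2828 with all 6 columns. With no filter they were 1080 and 573 of 39352 genes, and with no variance trend 1994 and 1289.

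Leaving out each library in turn gave 2 to 7 members higher and 2 to 8 lower, with a median of -0.16 to -0.094. The lists ranged over 0 to 2 and 0 to 1 for glutathione enzymes, 0 to 2 and 1 to 6 for NFE2L2 targets, 2 to 5 and 0 to 0 for KEAP1 partners, 0 to 1 and 0 to 0 for NADPH suppliers, 2 to 8 and 2 to 3 for folding genes, 2 to 4 and 0 to 1 for selenoprotein genes, 0 to 0 and 0 to 1 for peroxide producers and 0 to 1 and 0 to 0 for alpha-arrestins. Signs changed within the ranges of Hmox1 (-0.0072 to 0.21), Sod3 (-0.15 to 0.73), Txn1 (-0.056 to 0.013), Txn2 (-0.0072 to 0.081) and Txnrd3 (-0.097 to 0.072). No paired analysis was possible because the replicate numbers were given in deposit order and pair no samples. With 2 chow libraries, a chow spread rests on 1 difference, and a fit without 1 of them has no chow spread. Genes under the floor of 3 reads were not detectable at this depth.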
